A study of Mus musculus with 12 samples.

Results

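The genes described here encode enzymes that make prostaglandins and leukotrienes, lipid signals built from arachidonic acid. The 10 genes are Pla2g4a, Ptgs1, Ptgs2, Ptges, Hpgds, Alox5, Alox5ap, Lta4h, Ltc4s and Alox12, and their members on the array were all probe sets that the platform annotation pairs with one of them alone. This gave 15 probe sets for 9 of the 10 genes, out of 18193 genes with a probe set in all. For Ptgs1 the annotation used here lists none of its own, and it is not analysed here. Of the 15 probe sets, 12 passed the filter on dim probe sets, and 8 of the 9 genes entered the tests; the probe set of Ltc4s did not pass.

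The series holds 12 arrays of the Affymetrix type Mouse Genome 430 2.0, 3 in each of 4 groups, numbered 1 to 12 as in the titles. All mice carried floxed Foxo1, Foxo3 and Foxo4, the genes of FoxO1, FoxO3 and FoxO4. The wild-type groups lacked Mx-Cre (LSK cells, arrays 1 to 3, and myeloid progenitors, arrays 7 to 9), and the FoxO-deficient groups carried it (LSK cells, arrays 4 to 6, and myeloid progenitors, arrays 10 to 12). Mx-Cre is driven by the interferon-inducible Mx1 promoter, which is active in many cell types besides blood cells, and an effect of the transgene itself cannot be told apart from that of the deletion. Cells were sorted from the marrow of pooled mice, and the labels used here give neither age nor strain nor an inducing treatment. LSK cells lack lineage markers, carry both Sca-1 and Kit, and include the hematopoietic stem cells; myeloid progenitors are the more restricted cells downstream. Whether each of the 3 arrays had a pool of its own is not stated, so the spread that p-values measure may be technical.

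Cytosolic phospholipase A2, the product of Pla2g4a, frees arachidonic acid from membranes. Cyclooxygenases, made by Ptgs1 and by the rapidly inducible Ptgs2, turn it into prostaglandin H2, from which Ptges makes prostaglandin E2 and Hpgds makes prostaglandin D2. Along the other branch Alox5, presented with its substrate by the membrane protein Alox5ap, makes leukotriene A4, which Lta4h converts to leukotriene B4, an attractant of neutrophils, and Ltc4s converts to leukotriene C4. Alox12 is the lipoxygenase known from platelets. In marrow, prostaglandin E2 is known to act on hematopoietic stem cells, and leukotrienes are known as products of mature myeloid cells.

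Values below are normalized intensities, and the level of a group averages its 3 arrays on the log2 scale, turned back to intensity. The background limit is the brightest of 27 control probe sets for bacterial transcripts on each array, and it lay between 5.14 and 12.96. A gene is said to have risen, fallen or been called where the adjusted p of limma was under 0.05 (Benjamini-Hochberg over 13732 genes). Log2 changes carry the standard error from that fit (3 arrays per group). Mean deposited intensity per array lay between 119 and 190.2.

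Wild-type LSK array 2 stood apart. Its 3′ over 5′ signal ratio was 344 for the Gapdh control probe sets and 145 for those of Actb, against 1.77 to 2.37 and 2.74 to 3.36 on the other 11 arrays. It stayed in the fits, and calls of the enzyme genes that it touches are given with and without it. Of the targeted genes, Foxo4 fell in both cell types (log2 change -2.20 ± 0.19 in LSK cells and -2.46 ± 0.19 in myeloid progenitors, limma adjusted p = 0.00162 and 0.000114). The brightest Foxo1 probe set read lower in the deficient groups without passing the test (adjusted p = 0.263 and 0.609), and Foxo3 did not read lower (log2 change 0.22 and 0.38). Which exons were floxed is not stated in the labels, and a probe set outside them checks nothing. Of 10 LSK and stem cell markers tested, 9 were called lower in wild-type myeloid progenitors than in wild-type LSK cells, against 11.5% of all genes; Ly6a, which encodes Sca-1, was not among the genes tested.

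Shown are the promoters of Ptgs2 and Lta4h, the 2 enzyme genes called with FoxO deficiency in the fits of all 12 arrays. The Lta4h call, in LSK cells, held in 1 of 12 fits that left out 1 array, and its second probe set was not called. The 2 windows differ in letters known from inducible genes. Each window runs from 250 bases before to 30 bases after the RefSeq start (GRCm38.p6, plus strand), at chr1:150099781-150100060 for Ptgs2 and chr10:93453146-93453425 for Lta4h. Capitals mark a match to the cyclic AMP response element core TGACG, on the minus strand at bases 14 to 18 after the start, and to the E-box CACGTG at bases 17 to 22, which overlap.
Ptgs2: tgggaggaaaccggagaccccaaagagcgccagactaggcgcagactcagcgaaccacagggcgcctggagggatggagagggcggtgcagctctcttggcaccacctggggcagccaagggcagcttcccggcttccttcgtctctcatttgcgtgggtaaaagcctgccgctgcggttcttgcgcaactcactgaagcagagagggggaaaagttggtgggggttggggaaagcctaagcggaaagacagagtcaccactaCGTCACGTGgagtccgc
Lta4h: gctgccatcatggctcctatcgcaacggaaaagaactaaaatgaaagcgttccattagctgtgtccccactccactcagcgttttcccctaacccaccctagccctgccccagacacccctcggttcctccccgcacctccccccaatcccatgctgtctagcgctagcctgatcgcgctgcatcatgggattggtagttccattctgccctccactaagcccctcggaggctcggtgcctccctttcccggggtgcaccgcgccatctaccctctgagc
TGACG occurred in 19.9% and CACGTG in 6.79% of 32851 promoter windows of this length, searched on both strands. The windows of the other genes were searched for the same letters: 9 of the 10 genes had a window, 10 windows in all, and neither motif occurred in another of them. The FoxO element GTAAACA (3.49% of all windows) and the AP-1 site TGANTCA (7.46%) occurred in none of the 10. The TATA box TATAAA (13.1%) occurred in 1, a Pla2g4a window, from 200 to 195 bases before the start on the minus strand. A match of letters is a description of the window and says nothing about binding.

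**Figure D1:**
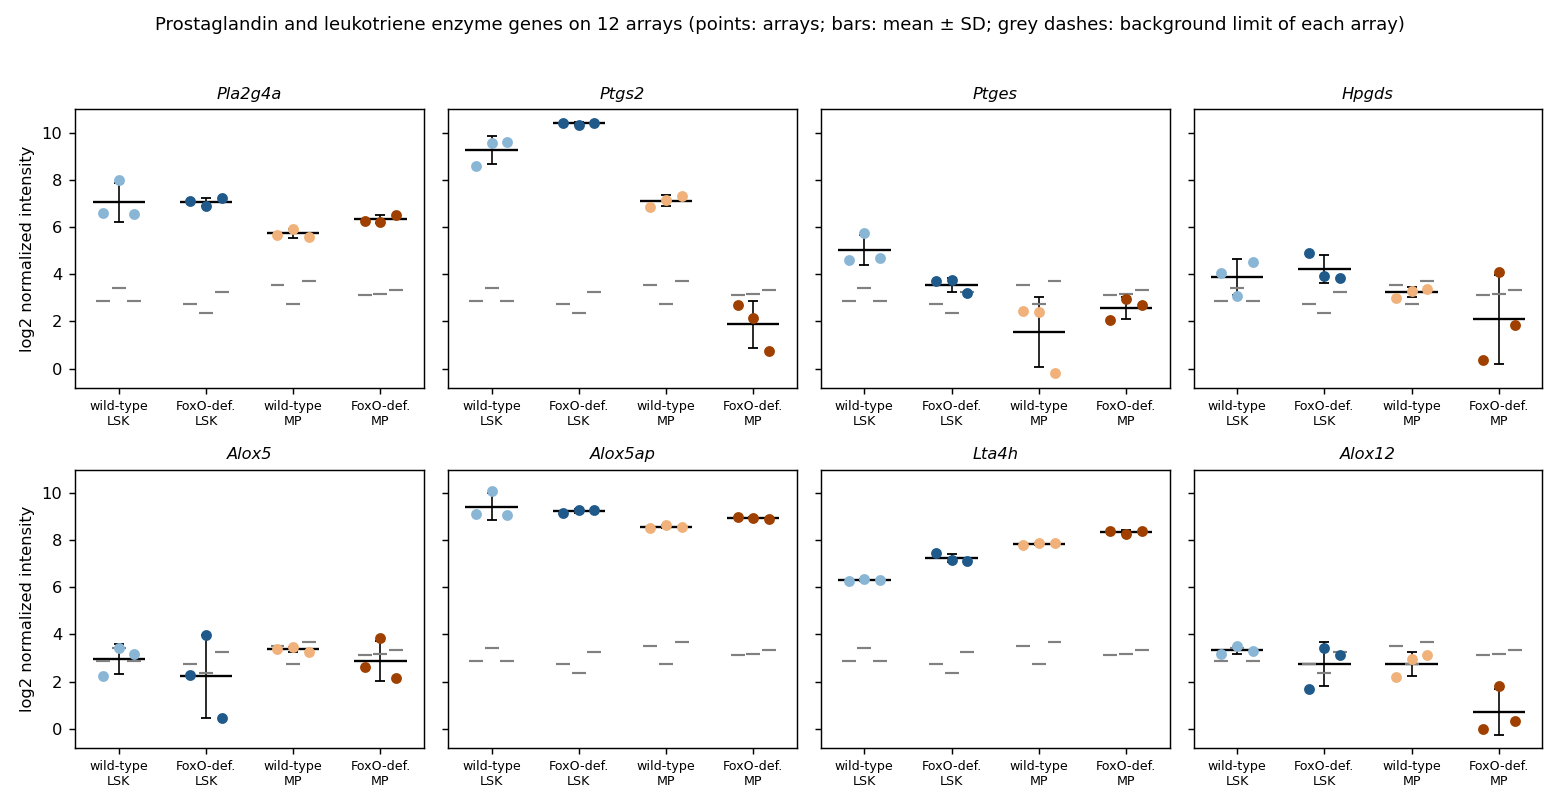
Log2 normalized intensity of the 8 tested enzyme genes on each of the 12 arrays, with 3 points per group, the mean ± SD as bars and the background limit of each array as grey dashes (MP, myeloid progenitors). Ptgs2 lies at or above 117 in intensity in 3 groups and below the limits in FoxO-deficient myeloid progenitors, and Lta4h rises in steps from 79.6 to 325.

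Pla2g4a, the enzyme that releases arachidonic acid, read lower in myeloid progenitors than in LSK cells. It read 96.9, 257 and 94.0 on wild-type LSK arrays 1, 2 and 3, and 136, 119.9 and 149 on the deficient LSK arrays. On the myeloid progenitor arrays it read 51.2, 61.1 and 48.1 in wild-type cells and 76.9, 75.1 and 92.3 in deficient cells. Array 2, the one with the high 3′ over 5′ ratios, gave the highest value of all 12, and the 3 deficient myeloid progenitor arrays lay above the 3 wild-type ones. From wild-type LSK cells to wild-type myeloid progenitors it fell from 133 to 53.2 (log2 change -1.32 ± 0.34, limma adjusted p = 0.0225). Without array 2 this change was -0.84 with an adjusted p of 0.00322. The call was lost without wild-type myeloid progenitor array 7 or array 9 (adjusted p = 0.0661 and 0.0737). Between the deficient groups Pla2g4a also read lower in myeloid progenitors but was not called (log2 change -0.73 ± 0.34, adjusted p = 0.175). Without array 2 that difference was called (adjusted p = 0.00326).

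With FoxO deficiency Pla2g4a did not pass the test in either cell type. The log2 change in LSK cells was 0.02 ± 0.34, with a 95% interval from -0.75 to 0.79. In myeloid progenitors it was 0.61 ± 0.34, from 53.2 to 81.1 (adjusted p = 0.530). Without array 2, which is not in that comparison but enters the common estimate of the spread, the same difference was called (adjusted p = 0.0299). The order of its group levels was wild-type myeloid progenitors, deficient myeloid progenitors and then both LSK groups, which did not differ beyond their spread. The likeness of the LSK groups rests on array 2. Without it the log2 change in LSK cells was 0.50, which was not called, and arrays 1 and 3 lay below every deficient LSK array. The genes nearest to Pla2g4a over the 12 arrays, by the root mean square difference of log2 values centred on each gene's mean, were Lgalsl (0.19), Emid1 (0.21) and Chil3 (0.21). All 3 were highest on array 2, like Pla2g4a, with Lgalsl at 482 there against 172 and 122 on arrays 1 and 3.

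Ptgs2, the inducible cyclooxygenase, held the largest changes among these genes. Its brighter probe set read 380.2, 764 and 785 on wild-type LSK arrays 1 to 3, and 1381, 1279 and 1373 on deficient LSK arrays 4 to 6. The wild-type myeloid progenitor arrays read 117, 143 and 161, and the deficient ones read 6.53, 4.42 and 1.69. All 3 deficient myeloid progenitor arrays lay below their background limits, and no pair of groups overlapped. In the deposited values, before normalization, the deficient myeloid progenitors read 6.1, 3.6 and 1 against 107.6, 187.2 and 121.4 in the wild type.

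In FoxO-deficient myeloid progenitors Ptgs2 was at least 14.98-fold lower than in wild-type ones, a bound that sets the wild-type level of 139 against the background limits. The fitted log2 change was -5.25 ± 0.46 (limma adjusted p = 0.000224). Its size depends on the offset added before taking logs, and it was -2.26 with an offset of 32, still past the threshold (adjusted p = 0.0151 or less in all 9 other settings). Leaving out each array in turn kept the call in 12 of 12 fits, with adjusted p between 0.000236 and 0.00216.

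In LSK cells Ptgs2 read the other way. The level was 611 in wild-type and 1344 in deficient cells, with all 3 deficient arrays above all 3 wild-type arrays. The log2 change was 1.14 ± 0.46 and did not pass the test (adjusted p = 0.400), though it did with an offset of 32 (1.09, adjusted p = 0.0372). The difference between the FoxO effects in the 2 cell types did pass: -6.39 ± 0.64 on the log2 scale (adjusted p = 0.00128). It was -6.55 without array 2 (adjusted p = 0.00221). Since it includes the group below background, its size depends on the offset too, and it was -3.36 with an offset of 32 (adjusted p = 0.000101).

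Between cell types Ptgs2 fell in both genotypes. Wild-type myeloid progenitors read 4.40-fold below wild-type LSK cells (log2 change -2.14 ± 0.46, adjusted p = 0.00893). Deficient myeloid progenitors read at least 145-fold below deficient LSK cells (adjusted p = 2.18e-06). The order of levels was therefore deficient myeloid progenitors, wild-type myeloid progenitors, wild-type LSK and deficient LSK cells, and only the last neighbours were not called apart. The second Ptgs2 probe set lay near background, at 9.38 and 15.6 in the LSK groups and at 2.07 and 1.55 in the myeloid progenitor groups, where no array exceeded its limit. Its changes had the same signs, at 0.74 in LSK cells and -0.41 in myeloid progenitors. In bulk samples, fewer cells with a transcript and less transcript per cell cannot be told apart.

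Most of the listed immediate-early genes, which respond within minutes to stimulation and to cell handling, fell like Ptgs2 in FoxO-deficient myeloid progenitors. Ptgs2 was not on the list of 32 such genes, all of them tested. In deficient myeloid progenitors 28 of the 32 were called lower and 1, Myc, higher, with a median log2 change of -3.36 against 0.04 for all genes, of which 1.09% were called lower and 0.757% higher. The counts were 30 and 1 without array 2. In LSK cells 0 of 32 were called by limma in either direction (6 at an unadjusted p under 0.05), against 0.269% of all genes. Their median log2 change there was 0.03, with 18 positive and 14 negative, while Ptgs2 read higher. From wild-type LSK cells to wild-type myeloid progenitors 13 were called lower and 0 higher, against 11.5% and 9.95% of all genes. Between the deficient groups these counts were 30 and 1, against 9.39% and 10.2%. The summed level of the list was 41600 to 42735 on wild-type LSK arrays and 45169 to 46350 on deficient ones. It was 26766 to 27548 on wild-type myeloid progenitor arrays and 3565 to 3607 on deficient ones, where 6 of the 32 genes were above the background limit on no array. The part of this list in the Ptgs2 result was not tested.

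The 3 genes whose values were most like those of Ptgs2 over the 12 arrays were Nr4a1, Nr4a3 and Rgs1. Likeness is the root mean square difference of log2 values, each gene centred on its own mean, and it was 0.69, 0.80 and 0.95. Nr4a1 and Nr4a3, nuclear receptors, are themselves on the immediate-early list, and Rgs1 is a regulator of G protein signalling. Nr4a1 had a level of 524 in wild-type LSK, 849 in deficient LSK, 74.5 in wild-type and 1.48 in deficient myeloid progenitor arrays. Nr4a3 read 1291, 1860, 143 and 2.09 in the same order. Rgs1 read 1324, 1662, 285 and 14.7. In deficient myeloid progenitors Nr4a1 and Nr4a3 were above the background limit on no array and Rgs1 on 2 of 3, so the sizes of their drops have no order.

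**Figure D2:**
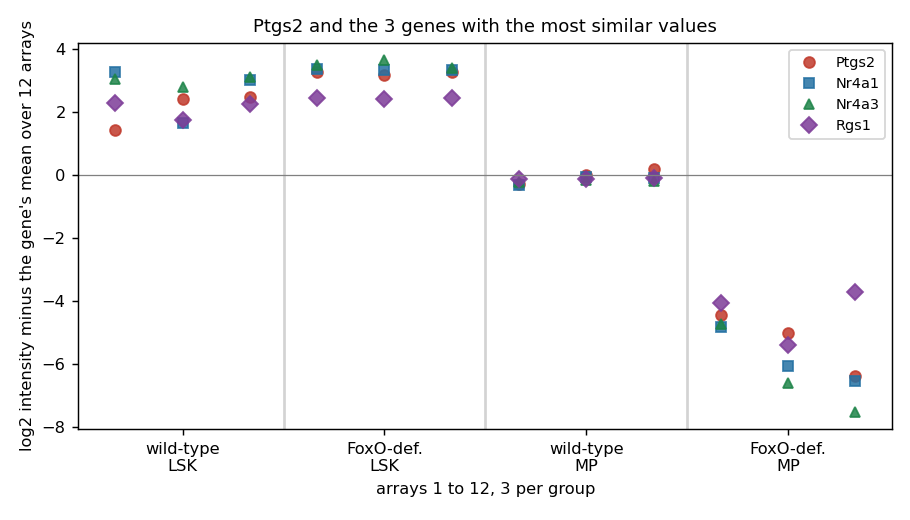
Log2 intensity of Ptgs2, Nr4a1, Nr4a3 and Rgs1 on arrays 1 to 12, each minus the gene's own mean over the 12 arrays, with 1 symbol per gene and array (MP, myeloid progenitors). The 4 genes lie together in each group, highest in the LSK groups and lowest on the 3 deficient myeloid progenitor arrays.

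Ptges, the inducible prostaglandin E synthase, was highest in wild-type LSK cells by its brightest probe set. This probe set read 24.6, 53.5 and 25.9 in wild-type LSK cells and 12.98, 13.5 and 9.22 in deficient LSK cells. It read 5.44, 5.24 and 0.88 in wild-type and 4.14, 7.69 and 6.47 in deficient myeloid progenitors, none of them above the limit. All 3 deficient LSK arrays were below all 3 wild-type ones, and 2 of the 3 were above their limit. That difference, from 32.4 to 11.7, was not called (log2 change -1.47 ± 0.64, limma adjusted p = 0.429). Without array 2, the highest of its group, it was -1.10. Wild-type myeloid progenitors were at least 3.23-fold below wild-type LSK cells (adjusted p = 0.00433). This call held in 12 of 12 fits that left out 1 array and in 8 of 9 other settings (adjusted p up to 0.055). The deficient groups were not called apart (adjusted p = 0.331).

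The other kept Ptges probe set read 7.63, 3.25, 3.40 and 5.13 in wild-type LSK, deficient LSK, wild-type and deficient myeloid progenitors. It was above the limit on 2 wild-type LSK arrays and on deficient myeloid progenitor array 11, at 11.1. Between wild-type cell types its log2 change was -1.17, not called among all kept probe sets (limma adjusted p = 0.396). The last Ptges probe set did not pass the filter. By the rule of likeness the nearest genes to Ptges were Pdzk1ip1 (0.41), Adgrd1 (0.54) and Bace2 (0.55). Pdzk1ip1 had a level of 147 in wild-type LSK, 55.0 in deficient LSK, 14.4 in wild-type and 17.2 in deficient myeloid progenitor arrays. Array 2 read 224 there, against 113 and 125 on the other wild-type LSK arrays. Another kept Pdzk1ip1 probe set read 73.1 in wild-type and 65.2 in deficient LSK cells, which overlap, with array 2 lowest at 38.0.

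Hpgds, the prostaglandin D synthase of blood cells, stayed close to background. It read 16.4, 8.34 and 23.1 in wild-type LSK cells and 30.1, 15.4 and 14.2 in deficient LSK cells. Myeloid progenitors read 7.98, 9.90 and 10.5 in the wild type and 1.28, 17.0 and 3.56 in the deficient group, where array 11 stood above its limit and the others did not. No comparison of Hpgds passed (adjusted p from 0.0899 to 0.861). The difference between the deficient groups passed without array 11 (adjusted p = 0.00653). Of markers of eosinophils, basophils and mast cells, in which Hpgds is known to be made, 12 were tested, and all 12 had a positive change in deficient LSK cells, as had 47.1% of all genes. Of these 2 were called, against 0.124% of all genes called higher. With FoxO deficiency in myeloid progenitors 9 of the 12 were positive (53.8% of all genes) and 1 was called higher (0.757%). Wild-type myeloid progenitors had 9 called higher (9.95%) and 1 lower (11.5%) than LSK cells, and deficient ones had 4 higher (10.2%). In each of these further comparisons Hpgds read lower, without a call. The summed level of these markers was 1236 to 2360 on wild-type and 2066 to 2224 on deficient LSK arrays. The part of these markers in the values of Hpgds was not tested.

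On the leukotriene branch Alox5ap was well above background on every array. It read 549.6, 1099 and 536 in wild-type LSK cells and 568, 619 and 617 in deficient LSK cells. It read 369, 396 and 377 in wild-type and 498, 494 and 483 in deficient myeloid progenitors. Array 2 was the highest again, and the other 2 wild-type LSK arrays lay just below the deficient LSK arrays. Wild-type myeloid progenitors were lower than wild-type LSK cells, 380.6 against 686 (log2 change -0.85 ± 0.25, limma adjusted p = 0.0365). Without array 2 the change was -0.51, with an adjusted p of 0.00256. Without any 1 of arrays 4 to 12 the call was lost (adjusted p between 0.0547 and 0.0987), and it was lost in 4 of 9 other settings: median scaling (-0.57, adjusted p = 0.233), no filter (0.0623), all kept probe sets (0.0549) and only the groups compared (0.197).

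With FoxO deficiency Alox5ap gave a log2 change of -0.19 ± 0.25 in LSK cells (95% interval -0.75 to 0.37), which was 0.15 without array 2. In myeloid progenitors the 3 deficient arrays were above the 3 wild-type ones, at 492 against 380.6 (0.37 ± 0.25, adjusted p = 0.638). Without array 2 this was called (adjusted p = 0.0251). Between the deficient groups it read -0.29 (adjusted p = 0.475, and 0.0190 without array 2). The genes nearest to Alox5ap were Ift80 (0.09), Asb7 (0.11) and Fam3c (0.12). Ift80 read 437, 411, 273 and 354 in wild-type LSK, deficient LSK, wild-type and deficient myeloid progenitors, and as with Alox5ap its wild-type LSK mean rests on array 2, which read 666 against 344 and 364 on arrays 1 and 3. Asb7 and Fam3c were also highest on array 2.

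Lta4h, the maker of leukotriene B4, rose in LSK cells with FoxO deficiency and from LSK cells to myeloid progenitors. Its brighter probe set read 77.8, 81.7 and 79.2 in wild-type LSK cells and 175, 143 and 140.0 in deficient LSK cells. It read 222, 234 and 234 in wild-type and 331, 309 and 337 in deficient myeloid progenitors. The 4 groups did not overlap, and array 2 was not apart from arrays 1 and 3. In LSK cells the rise from 79.6 to 152 was 1.91-fold (log2 change 0.93 ± 0.14, limma adjusted p = 0.0311). Without array 2 the adjusted p was 0.0121, but without any 1 of the other 11 arrays the call was lost (adjusted p between 0.0636 and 0.139, log2 change between 0.83 and 0.99).

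In myeloid progenitors Lta4h read 230.0 and 325, a log2 change of 0.50 ± 0.14 that did not pass (adjusted p = 0.124, and 0.0228 without array 2). The difference between the effects in the 2 cell types did not pass either (-0.43 ± 0.20, adjusted p = 0.478), so the effects were not shown to differ. Between cell types the rise was 2.89-fold in the wild type (adjusted p = 7.63e-05) and 2.14-fold in deficient cells (adjusted p = 0.000462). Both calls held without each array in turn and in all 9 other settings.

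The probe sets of Lta4h disagreed on the FoxO effect. The second read 31.0, 8.80 and 24.1 in wild-type LSK cells and 20.3, 12.8 and 16.7 in deficient LSK cells, which overlap. That overlap rests on array 2, whose 8.80 was below its limit of 10.66. Arrays 1 and 3 lay above every deficient LSK array, against the direction of the brighter probe set. In myeloid progenitors the second probe set read 103, 109 and 80.8 in wild-type and 102, 93.3 and 99.7 in deficient cells, which overlap too. Among all kept probe sets its log2 change was -0.20 ± 0.41 in LSK cells (adjusted p = 0.862), while myeloid progenitors gave 0.02 ± 0.41 (adjusted p = 0.996). In that same test the brighter probe set had an adjusted p of 0.0705 in LSK cells. Between cell types both agreed in sign: the second rose by 2.37 in the wild type and by 2.59 in deficient cells (adjusted p = 0.00443 and 0.00236). The last probe set of the gene was below the limit on every array.

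**Figure D3:**
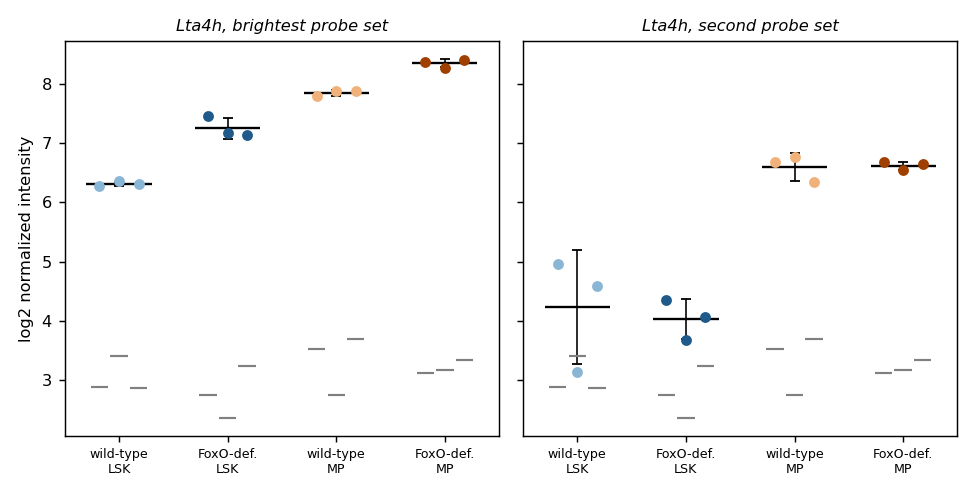
Log2 normalized intensity of the brighter and the second Lta4h probe set on the 12 arrays, with 3 points per group, the mean ± SD as bars and background limits as grey dashes (MP, myeloid progenitors). The left panel rises over all 4 groups, from 79.6 to 325, and the right panel has 1 step, between 16.3 or 18.7 in the LSK groups and 96.8 or 98.3 in the myeloid progenitor groups.

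The genes most like Lta4h were Lgals1 (0.21), Endod1 (0.23) and Afap1 (0.23). Lgals1, a galectin, went from 1528 (wild-type LSK) over 2059 (deficient LSK) and 3741 (wild-type myeloid progenitors) to 5240.2 (deficient ones). Markers of granulocyte-monocyte progenitors moved between the same groups: 7 of 8 tested were called higher in wild-type myeloid progenitors than in LSK cells, against 9.95% of all genes. Their summed level was 3621 to 4632 on wild-type and 4328 to 4731 on deficient LSK arrays, and 12416 to 13318 and 15250 to 16124 in myeloid progenitors. Late neutrophil genes summed to 5989 to 8220 on wild-type and 8529 to 8769 on deficient LSK arrays, with 1 of 9 tested called higher, against 0.124% of all genes. On myeloid progenitor arrays they summed to 4468 to 4616 in wild-type and 6286 to 6606 in deficient cells. From LSK cells to myeloid progenitors, where Lta4h rose, 6 of the 9 were called lower in the wild type (11.5% of all genes). In deficient cells 5 were called lower (9.39% of all genes), and in neither genotype was any called higher. The part of these lists in the values of Lta4h was not tested.

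Alox5, the lipoxygenase that starts leukotriene synthesis, read between 1.36 and 15.6 over the 12 arrays, near the limits. Its levels were 7.78 in wild-type LSK, 4.70 in deficient LSK, 10.3 in wild-type and 7.35 in deficient myeloid progenitor arrays. The groups overlapped in every comparison and none passed (adjusted p from 0.620 to 0.957). At this signal a difference was not detectable. Ltc4s, the leukotriene C synthase, read between 0.96 and 7.08 and was above the limit on no array.

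Alox12 was also dim. Its brightest probe set read 9.13, 11.3 and 9.99 in wild-type LSK cells and 3.18, 10.8 and 8.75 in deficient LSK cells. It read 4.57, 7.69 and 8.73 in wild-type and 0.98, 3.51 and 1.26 in deficient myeloid progenitors. The 3 deficient myeloid progenitor arrays were below all others except deficient LSK array 4, which read 3.18 against 3.51 on array 11. Between the deficient groups the call passed (limma adjusted p = 0.0268), but both groups lay around the limits and no fold is given. It was lost without array 5, 6, 10 or 12 (adjusted p between 0.0912 and 0.0998), and it held in 5 of 8 other settings (adjusted p up to 0.156). In myeloid progenitors the 3 deficient arrays lay below the 3 wild-type ones, but the difference did not pass (adjusted p = 0.111). The second probe set gave FoxO effects of the opposite sign, with 3.87 and 6.89 in the LSK groups and 1.66 and 2.74 in the myeloid progenitor groups, wild type first. Nearest to Alox12 were Ttc23 (0.62), Pnrc1 (0.63) and Gm20199 (0.63). The summed level of 11 megakaryocyte and platelet genes was 697 to 813 on wild-type and 560.3 to 638 on deficient myeloid progenitor arrays, with 0 of 11 called by limma (1 at an unadjusted p under 0.05), and their part in the values of Alox12 was not tested.

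Counted over the 8 tested enzyme genes, FoxO deficiency in LSK cells gave 1 call, Lta4h higher, where 0.269% of all genes were called and 0.124% called higher (0.146% lower). In myeloid progenitors it gave 1, Ptgs2 lower, against 1.84% of all genes and 1.09% called lower. The difference of the effects gave 1, Ptgs2 lower, against 0.859% in all, 0.568% lower and 0.291% higher. Without array 2 the same 1 gene was called in LSK cells (0.903% of all genes) and in the difference (3.13%). Without array 2 the myeloid progenitor count was 4, Ptgs2 lower and Lta4h, Alox5ap and Pla2g4a higher, against 8.53% of all genes. The median log2 change of the 8 genes was -0.09 in LSK cells and -0.06 in myeloid progenitors, against -0.04 and 0.04 over all genes. In myeloid progenitors 5 of the 8 had groups that did not overlap (Ptgs2, Alox12, Lta4h, Alox5ap and Pla2g4a), against 30.8% of all genes, and in LSK cells 3 of the 8 (Ptgs2, Ptges and Lta4h), against 16.8%.

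Cell type gave more calls. Wild-type myeloid progenitors differed from wild-type LSK cells in 5 of the 8, with Lta4h higher and Ptgs2, Ptges, Pla2g4a and Alox5ap lower, against a share called among all genes of 21.4% (9.95% up, 11.5% down). The same 5 were called without array 2, against 34% of all genes. In deficient cells 3 of the 8 were called, with Lta4h higher and Ptgs2 and Alox12 lower, against 19.6% of all genes (10.2% higher and 9.39% lower). This last count was 5 without array 2, against 37.3%, with Alox5ap and Pla2g4a added. The median log2 change was -0.75 in the wild type and -0.86 in deficient cells, against 0.02 and 0.11 over all genes. All these comparisons draw on the same 12 arrays, and those that share a group are not independent.

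**Figure D4:**
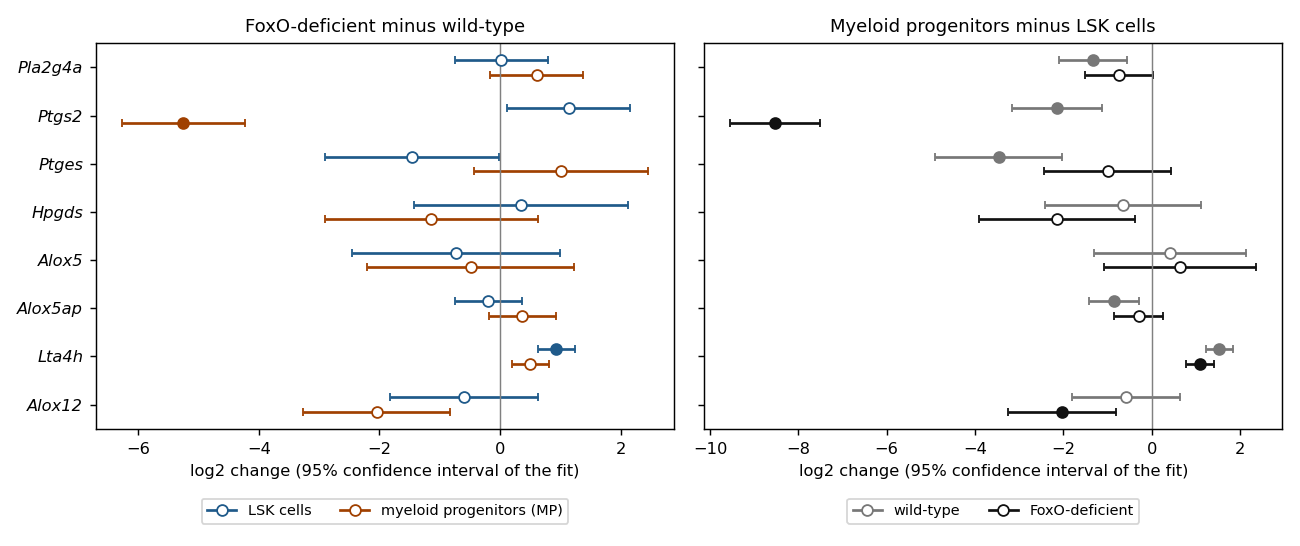
Log2 change of the 8 tested enzyme genes with its 95% confidence interval from the limma fit, unadjusted, with FoxO deficiency at left and between cell types at right; filled points were called (adjusted p under 0.05). Filled at left are Ptgs2 in myeloid progenitors (-5.25) and Lta4h in LSK cells (0.93), and at right 5 genes in wild-type and 3 in deficient cells.

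A further list held 62 genes of arachidonate release, prostanoid and leukotriene synthesis, breakdown and their receptors, of which 47 were tested. None of the 47 was called by limma with FoxO deficiency in LSK cells, in myeloid progenitors or in the difference of effects (0.269%, 1.84% and 0.859% of all genes were), and 7, 6 and 6 had an unadjusted p under 0.05. Their median log2 change was -0.12 in LSK cells and 0.06 in myeloid progenitors. Without array 2, 3 were called in myeloid progenitors, all higher: Anxa1, an inhibitor of arachidonate release, from 355 to 855 (log2 change 1.27, adjusted p = 0.00385), Ptgir, the prostacyclin receptor, from 13.6 to 27.6 (1.02, adjusted p = 0.0196), and Ptgr1, which inactivates leukotriene B4, from 385 to 560.3 (0.54, adjusted p = 0.0129). Anxa1 is outside the rule for named genes and was chosen after its values were seen. Its other kept probe set had the opposite sign, at 26.6, 19.6 and 19.2 on the wild-type and 6.43, 3.51 and 8.02 on the deficient arrays, the latter all below their limits.

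Between wild-type cell types 14 of the 47 were called, 7 higher and 7 lower in myeloid progenitors, against 21.4% of all genes. Of the genes that free arachidonic acid or return it to lipids, 3 of 14 were called, all higher, against 9.95% of all genes called higher. Without array 2, Anxa1 (log2 change -0.94, adjusted p = 0.00594) and Plaat3, a phospholipase (-0.89, adjusted p = 0.000401), were called lower. Plaat3 read 984, 94.5 and 1100 on wild-type LSK arrays 1 to 3, and with array 2 its change was 0.26; it too was named after its values were seen. Pla2g4c, a cytosolic phospholipase, rose from 25.7 to 149 (log2 change 2.53 ± 0.32). Pla2g12a, a secreted one, rose from 9.58 to 65.3 (2.77 ± 0.39), and Lpcat3, which puts arachidonate back into phospholipids, rose from 19.0 to 37.2 (0.97 ± 0.24). Acsl4, which activates arachidonate (712 and 762), and Mboat7, which also reacylates it (752 and 643), were not called.

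Of the prostanoid synthases 2 of 5 fell, against 11.5% of all genes called lower. The counts of these small subgroups are descriptions, and no subgroup was tested as a set. Tbxas1, thromboxane synthase, fell from 193 to 37.6 (log2 change -2.36 ± 0.20), and Ptgds, the other prostaglandin D synthase, fell from 94.4 to 21.0 (-2.17 ± 0.29). Ptges2, a further prostaglandin E synthase (21.6 and 34.7), and Cbr1 (101 and 137) were not called. Of 6 further lipoxygenase and leukotriene genes Ggt5, which processes leukotriene C4, fell from 39.0 to 9.72, with 1 of 3 arrays above the limit; another of its probe sets had the opposite sign, near background. Mgst2 (77.7 and 102) and Cotl1 (64.7 and 43.7) were not called, although Mgst2 was without array 2 (0.71, adjusted p = 0.0348).

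Genes of breakdown and transport gave 3 calls among 8, against 21.4% of all genes. Ptgr1 rose from 93.5 to 385 (log2 change 2.04 ± 0.21), and Ephx2, soluble epoxide hydrolase, read 56.3 against 9.08 in LSK cells, where 1 array was above the limit (adjusted p = 0.00148). Abcc1, which exports leukotriene C4, fell from 401 to 148 (-1.44 ± 0.16). Ptgr2 (324 and 378) and Abcc4 (131 and 120.3) were not called, although Abcc4 was without array 2, where its log2 change turned from -0.12 to 0.79 (adjusted p = 0.0129).

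Receptors for prostanoids gave 3 calls among 10, against 21.4% of all genes. Leukotriene receptors, listed together with the lipoxin receptor Fpr2, gave 2 among 4, of which Fpr2 was 1. Ptger4, a prostaglandin E2 receptor, fell from 2157 to 1098 (log2 change -0.97 ± 0.15), and Ptger3, another, fell from 88.9 to 36.1 (-1.30 ± 0.26). Ptgdr was called higher in myeloid progenitors (limma adjusted p = 0.0493), with overlapping arrays. It was above the limit on 1 of 3 arrays there and on no wild-type LSK array, so no fold is given. Of the 12 fits without 1 array, its call passed in that without array 1 alone. Ltb4r1, the high-affinity leukotriene B4 receptor, rose from 6.16 to 31.9 (2.37 ± 0.65, and 1.54 without array 2), and Fpr2, a receptor for lipoxin, fell from 94.3 to 19.7 (-2.26 ± 0.39). Ptger1 (23.7 and 18.1), Ptgir (12.5 and 13.6), Cysltr1 (2.53 and 7.97) and Cysltr2 (12.2 and 8.96) were not called.

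In deficient cells 11 of the 47 were called between cell types, 5 higher and 6 lower, against 19.6% of all genes, and all 11 were also called in the wild type with the same sign. Ptgr1 rose from 121 to 560.3 (log2 change 2.21), Ltb4r1 from 6.16 to 47.0 (2.93), Ephx2 from 7.84 to 60.3 (2.94), Pla2g4c from 15.5 to 71.5 (2.21) and Pla2g12a from 16.7 to 42.0 (1.33). Tbxas1 fell from 166 to 33.8 (-2.30), Ptgds from 174 to 32.9 (-2.40) and Abcc1 from 243 to 160.0 (-0.60). Ptger3 fell from 71.1 to 39.0 (-0.87), Ptger4 from 2127 to 1266 (-0.75), and Ggt5 was at least 3.87-fold lower. Of the 12 fits that left out 1 array, the call held in 3 for Pla2g12a (adjusted p up to 0.123), in 4 for Ptger3 (up to 0.136) and in 6 for Abcc1 (up to 0.0896). The other 8 kept theirs in all 12. In the wild type, Lpcat3 kept its call in 10 of 12 and Ltb4r1 in 9 of 12. Without array 2 the count was 17 of 47 in each genotype, against 34% of all genes in the wild type and 37.3% in deficient cells.

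**Figure D5:**
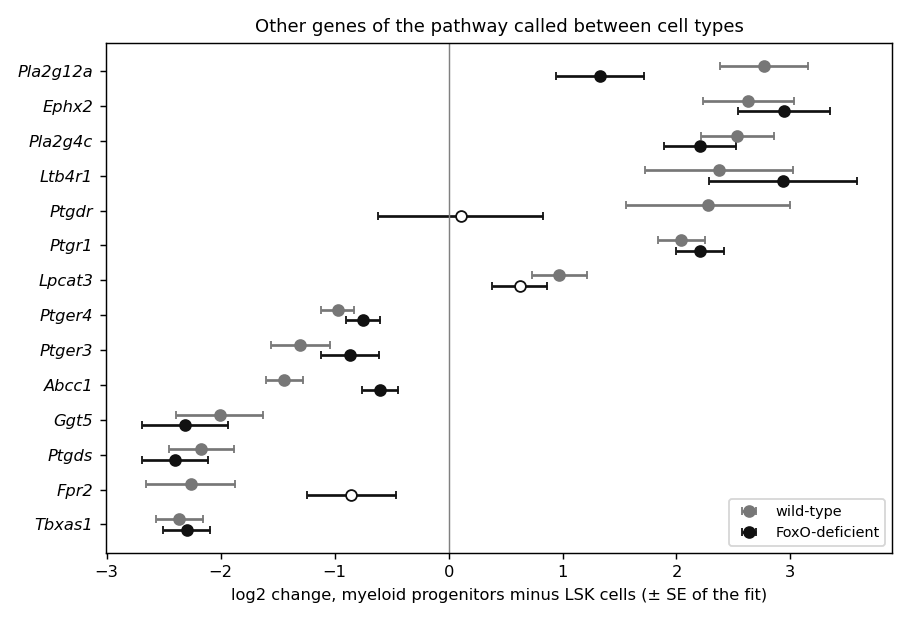
Log2 change from LSK cells to myeloid progenitors of the 14 listed pathway genes called in the wild type, with the standard error of the limma fit as bars, grey for wild-type and black for FoxO-deficient cells; filled points were called. Pla2g12a, Ephx2, Pla2g4c, Ltb4r1, Ptgdr, Ptgr1 and Lpcat3 lie to the right of 0 and the other 7 to the left, and Ptgdr, Lpcat3 and Fpr2 are open in deficient cells.

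Ptgs2 and Pla2g4a are neighbours on chromosome 1, with 2 genes between them in the RefSeq annotation, neither of them protein-coding. Their values did not follow each other in myeloid progenitors: with FoxO deficiency Ptgs2 fell from 139 to 3.65 while Pla2g4a read 53.2 and 81.1, and Pla2g4a lay above its background limit on all 12 arrays.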

How the data were processed

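Expression was measured on 12 Affymetrix arrays after NuGEN Ovation amplification and biotin labelling in triplicate, per the labels' protocols. Each deposited array lists a linear intensity for 45101 probe sets. How the authors summarised probes into these intensities: not given in the sources used here. Array medians ranged from 8 to 13.5.

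From these, log2(intensity + 0.6) was computed (0.6 is the 10th percentile of all values) and quantile normalized. The offset understates changes of dim genes. Of the probe sets, 64 were controls, 34945 carried 1 gene symbol, 932 several and 9160 none; only those with 1 symbol were named, and 34741 symbols were updated through RefSeq (GRCm38.p6). Probe sets above the 40th percentile of their array on at least 3 arrays were kept (31779), and each gene was represented by its brightest, leaving 13732 genes. Tests were two-sided and came from lmFit and eBayes of limma 3.58.1, run in R 4.3.3 (group means, all 12 arrays, 8 residual degrees of freedom), tested on simulated data. "At least" folds set the brighter group's mean against the dimmer group's background limits, or, per array, its own value if that was higher. Folds are left out if the dimmer group was above its limit on 1 of 3 arrays or the bound was under 1. They are also left out for Ptgdr, whose brighter group was above its limit on 1 of 3 arrays. Fitted log2 changes that involve a group below its limits depend on the offset and are no bound. The number of arrays limits the precision.

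Named were all members, every gene of the pathway list called in any comparison, up to 2 further genes of each subgroup with the highest mean, and for each called member the 3 genes of smallest root mean square difference. The members and lists were chosen with earlier results of these data known. Sequences are RefSeq's. Alternatives were other offsets (16 and 32), median scaling, other filters, all kept probe sets, array weights, a trended robust variance, only the groups compared, and leaving out each array.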

Additional observations from a re-analysis of the deposited data

Results flagged for a closer look

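Ptgs2 stands out because its FoxO effect differed between the cell types by a test of the difference itself. The effect in myeloid progenitors minus that in LSK cells was -6.39 ± 0.64 on the log2 scale (limma adjusted p = 0.00128). It was -3.36 with an offset of 32 (adjusted p = 0.000101), since the deficient myeloid progenitors lay below background on all 3 arrays and the size depends on the offset. The 3 deficient arrays lay below all wild-type arrays in myeloid progenitors and above all wild-type arrays in LSK cells. No other tested enzyme gene of the 8 passed this test. Groups of 3 arrays were too small to be tested for outlying samples.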

How the results depend on the processing

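No paired analysis was possible because the array numbers 1 to 12 are not shared between groups. Some changes kept sign and call in each of the 12 fits that left out 1 array and in all 9 other settings. Among the enzyme genes these were the falls of Ptgs2 in myeloid progenitors and between cell types, and the rises of Lta4h between cell types. The difference of Ptgs2 effects kept both in the 12 fits and in 8 settings. Among the pathway genes between cell types, they were Ephx2, Pla2g4c, Ptgds, Ptgr1 and Tbxas1 in both genotypes. Abcc1, Fpr2 and Pla2g12a joined them in the wild type, and Ggt5 and Ltb4r1 in deficient cells. Leaving out wild-type LSK array 2 raised the count of genes called in myeloid progenitors from 253 to 1172. The count of enzyme genes called in LSK cells, 1, was 2 with an offset of 32 and 0 with median scaling, no filter, all kept probe sets or only the groups compared, and 0 to 1 without each array. In myeloid progenitors it was 2 with an offset of 32, 4 with array weights, 2 with only the groups compared, and 1 to 4 without each array. Between wild-type cell types, 5 became 2 with only the groups compared and 3 to 5 without each array; between deficient ones, 3 became 5 with array weights and 2 to 5 without each array. Pathway genes called in LSK cells were 1 with an offset of 16 or 32. In myeloid progenitors they were 2 with either offset, 1 with the 60th percentile filter, all kept probe sets or the trended variance, 3 with array weights or only the groups compared, and 0 to 3 without each array. In the difference of effects they were 0 to 1 without each array; between wild-type cell types 9 with only the groups compared and 11 to 17 without each array; between deficient ones 19 with array weights and 8 to 17 without each array. The cause of these shifts was not tested. Among the enzyme genes, the changes that turned sign, none of them called, were Pla2g4a in LSK cells (-0.0051 with an offset of 32, and -0.23 to 0.50 without each array), Hpgds in LSK cells (-0.077 with array weights, -0.057 to 0.68), Alox5ap in LSK cells (0.12 with array weights, -0.37 to 0.15), Alox5 in LSK cells (-1.59 to 0.17), Alox5 between deficient cell types (-0.25 to 1.51), the difference of Alox5 effects (-0.038 and -0.029 with offsets of 16 and 32, -0.65 to 1.11) and Alox5ap between deficient cell types (0.058 with median scaling). Of the pathway genes named, Abcc4 and Plaat3 between wild-type cell types turned sign without array 2, to 0.79 and -0.89, and were then called. Median scaling moved the median of all genes from 0.02 to 0.19 between wild-type and from 0.11 to 0.31 between deficient cell types, so cell type changes are relative to that. Hpgds, Alox5, Alox12 and Ptgdr gave no value under the 60th percentile filter, and the difference of effects none with only the groups compared. Signal near background limits what Hpgds, Alox5, Alox12 and Ltc4s can show.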
